A study of Mus musculus with 6 samples.

Results

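The genes examined encode the E proteins and their Id inhibitors, chosen as the rows of the array table whose annotation gives *Tcf3*, *Tcf4*, *Tcf12*, *Id1*, *Id2*, *Id3* or *Id4*. All 7 genes were measured, each by 1 row, among 19752 genes in all. RNA came from mature (Vα2hi CD24lo) CD4 SP thymocytes of OT-II TCR transgenic mice, 3 dKO samples and 3 wild-type samples, with 1 array for each. The dKO cells were Jmd3f/f-utxf/f in the sample records, that is, floxed *Kdm6b* (encoding Jmjd3) and *Kdm6a* (encoding Utx) alleles deleted by Cre under *Cd4* control. Deletion thus started at the DP stage, and the floxed exons encode the JmjC catalytic domain. Controls called wild-type lacked Cre and, by the methods, were littermates with floxed *Jmjd3* or *Utx*, and all 6 samples shared the OT-II transgene. The methods give female adult mice unless noted otherwise, and the records give no sex or age for each sample. They call the samples biological replicates without naming separate mice, so a p-value here reflects only the spread among these arrays, which may be technical.

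E proteins are basic helix-loop-helix transcription factors that bind E-box DNA as dimers. *Tcf3* encodes E2A, *Tcf12* encodes HEB and *Tcf4* encodes E2-2, and none of them is related to the HMG-box factor TCF-1. Id proteins keep the helix-loop-helix but lack the basic region, so that an E protein paired with an Id protein cannot bind DNA. In the thymus, E2A and HEB sustain the DP programme of gene recombination and arrest, and TCR signals induce *Id3* as thymocytes are selected.

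The array values were log2 values normalized by RMA, which evens out the arrays, and a change was called at an adjusted p under 0.05 from limma over all genes. Array medians lay between 6.27 and 6.32. Over 1027 olfactory receptor genes, taken as an example of genes that T-cells do not use, the median log2 value was 4.26 and the 95th percentile 5.61. The targeted genes read -0.67 for *Kdm6a* (adjusted p = 2.6e-05) and -0.09 for *Kdm6b* (adjusted p = 0.32) as log2 fold changes, and the position of their probes relative to the floxed exons is not known here, so that a value near 0 checks nothing. *Cd4*, which encodes a marker used to sort the cells, and the T-cell marker gene *Cd3e* had values of 12.11 or more on every array. Of 9 T-cell markers, 1 was higher (*Cd28*, by 0.24), 2 were lower (*Cd5*, with a log2 fold change of -0.43, and *Themis*, with -0.24) and 6 did not pass. Over all genes, 13.1% were called higher and 10.0% lower.

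*Id3* fell and *Tcf4* rose in dKO cells, each by 1.60-fold, and none of the other 5 genes passed the test. Among the E proteins, 1 of 3 was higher and none was lower, and among the Id proteins 1 of 4 was lower and none was higher. The other 5 genes differed by at most 1.08-fold. Over all genes, 10.0% were called lower and 13.1% higher, together 23.1%, so the count of 2 of 7 members is a share near the background and is no result about the family.

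**Figure D1:**
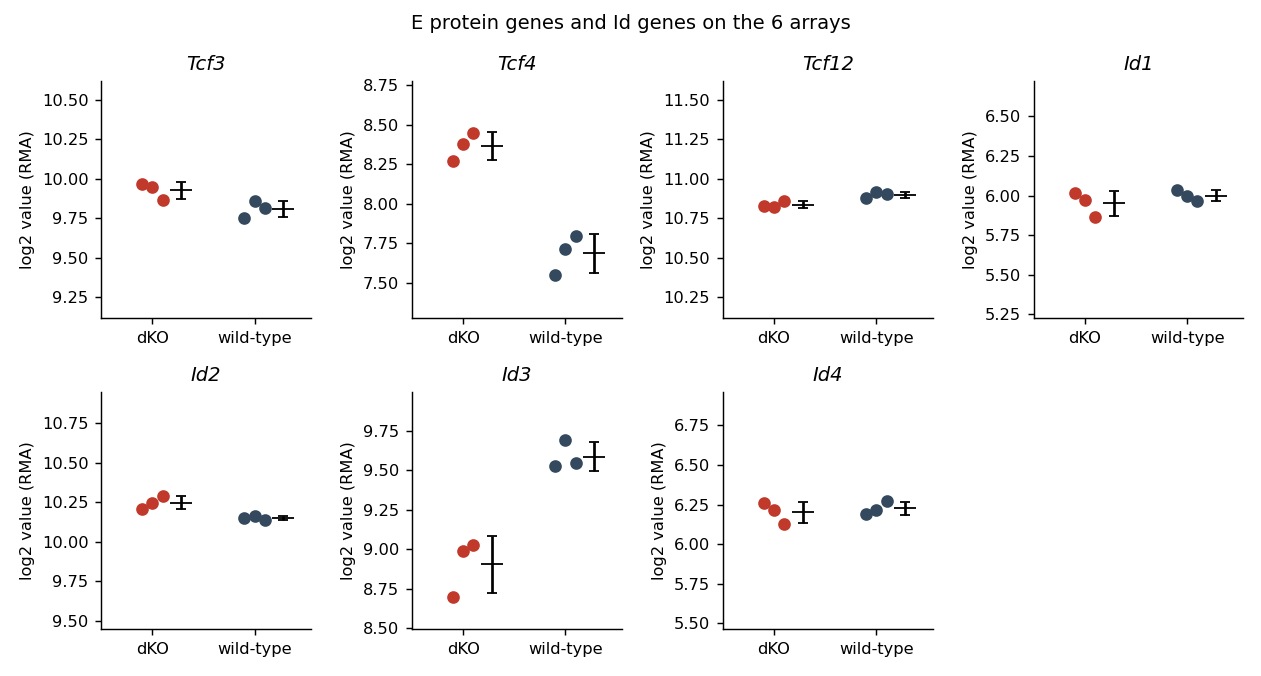
Log2 values (RMA, vertical axis) of the 3 E protein genes and 4 Id genes on the 3 dKO arrays (red) and the 3 wild-type arrays (dark blue). Each point is an array, the black bars are mean ± SD, and each panel has its own range. The *Tcf4* points of dKO lie at 8.27 or more and those of wild-type at 7.79 or less, and the *Id3* points of dKO lie at 9.03 or less and those of wild-type at 9.52 or more.

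*Tcf4* (GRCm38.p6, chr18:69343429-69687967) encodes E2-2, the E protein best known for specifying plasmacytoid dendritic cells. Its log2 values were 8.27, 8.38 and 8.45 on the dKO arrays, against 7.55, 7.71 and 7.79 on the wild-type arrays. All 3 dKO arrays lay above all 3 wild-type arrays, and the gap between the nearest arrays of the genotypes was wider than the range within either. *Tcf4* averaged 8.37 ± 0.09 in dKO and 7.69 ± 0.12 in wild-type cells (SD, n = 3 each). The log2 fold change was 0.68 (standard error 0.07, 95% interval 0.52 to 0.84, adjusted p = 9.8e-05 from limma), and 2.08% of all genes changed by more in either direction. In bulk RNA, a larger share of cells with *Tcf4* RNA and more of that RNA in each cell cannot be told apart, and the same holds for the other genes.

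Neither of the other E protein genes passed the test. *Tcf3*, which encodes E2A, had log2 values of 9.97, 9.95 and 9.87 in dKO, against 9.75, 9.86 and 9.82 in wild-type cells. The dKO arrays were the higher ones by a margin of less than 0.01 between the nearest arrays of the genotypes. Its log2 fold change of 0.12 (95% interval 0.004 to 0.23) had a raw p of 0.044 and failed the correction (adjusted p = 0.14 from limma). *Tcf12*, which encodes HEB, had log2 values of 10.83, 10.82 and 10.86 in dKO and 10.88, 10.92 and 10.90 in wild-type cells. The dKO arrays were the lower ones here, and the difference was -0.06 (95% interval -0.16 to 0.03, adjusted p = 0.37). For *Tcf3* the interval allows a rise of at most 0.23, and for *Tcf12* a fall of at most 0.16, both on the log2 scale.

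*Id3* (GRCm38.p6, chr4:136143822-136145392), which encodes the Id protein induced by TCR and pre-TCR signals in thymocytes, had log2 values of 8.70, 8.99 and 9.03 in dKO cells, against 9.52, 9.69 and 9.55 in wild-type cells. The genotypes did not overlap, and the lowest value was that of dKO replicate 1. *Id3* averaged 8.91 ± 0.18 in dKO and 9.59 ± 0.09 in wild-type cells (SD, n = 3 each), which puts dKO at 62.4% of wild-type. The log2 fold change was -0.68 (standard error 0.09, 95% interval -0.87 to -0.49, adjusted p = 3.2e-04 from limma), and 1.29% of all genes had a lower one. Without dKO replicate 1 it was -0.58 (adjusted p = 4.1e-04).

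The remaining Id genes did not pass. *Id2*, which encodes the Id protein on which NK cells and innate lymphoid cells depend, had log2 values of 10.21, 10.25 and 10.29 in dKO and 10.15, 10.16 and 10.14 in wild-type cells. The dKO arrays lay above the wild-type arrays, yet the log2 fold change was 0.10 (95% interval -0.01 to 0.20, adjusted p = 0.17). *Id1*, a target of BMP signals in many tissues, had log2 values of 6.02, 5.97 and 5.86 in dKO and 6.03, 5.998 and 5.96 in wild-type cells. *Id4*, best known from neural and mammary tissue, had values of 6.26, 6.22 and 6.13 in dKO and 6.19, 6.21 and 6.27 in wild-type cells. For *Id1* and *Id4* the genotypes overlapped, with log2 fold changes of -0.05 (95% interval -0.17 to 0.07) and -0.02 (95% interval -0.14 to 0.09). *Id1* lay above 44.7% and *Id4* above 48.8% of all genes by mean value, and *Id4* turned to 0.012 without dKO replicate 3. Both lay not far above the 95th percentile of the olfactory receptor genes, 5.61, so background may limit their measured differences.

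**Figure D2:**
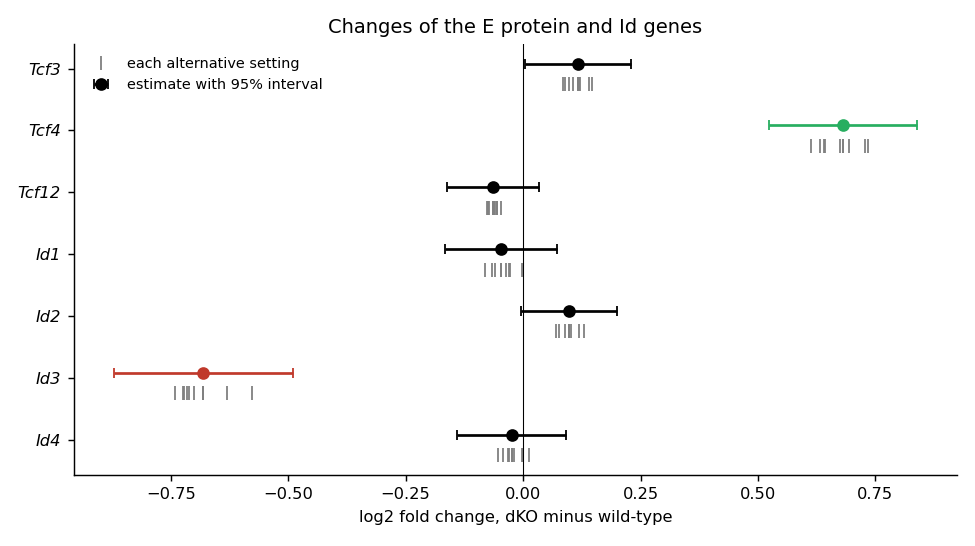
Log2 fold change (dKO minus wild-type, horizontal axis) of each E protein and Id gene. Points with bars are the limma estimate and its 95% interval, green where called higher, red where called lower and black where not called, and grey ticks are the estimates under each alternative setting. Ticks of *Tcf4* run between 0.61 and 0.73 and those of *Id3* between -0.74 and -0.58, and the estimates of the other 5 genes lie between -0.06 and 0.12.

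In all, 5 of the 7 genes had arrays that did not overlap between the genotypes, 3 with dKO above (*Tcf4*, *Tcf3* and *Id2*) and 2 with dKO below (*Id3* and *Tcf12*). Over all genes the arrays did not overlap in 37.7%, with dKO above in 21.3% and below in 16.5%. The differences of log2 values within each array are given as a description, since the pairs were formed around the members that were called. Relative to *Id2*, *Id3* shifted by -0.78 in dKO against wild-type cells, relative to *Id1* by -0.63 and relative to *Id4* by -0.66. *Tcf4* shifted by 0.56 relative to *Tcf3* and by 0.74 relative to *Tcf12*.

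The stretch of 250 bases before the RefSeq start site (GRCm38.p6) is shown for *Id3*, the member that fell, and for *Id2*, its relative that was not called, since E-boxes in such a stretch are where E proteins could bind. These windows were found for 5 of the 7 genes by symbol, *Tcf3*, *Tcf12*, *Id2*, *Id3* and *Id4*. The *Id3* window lies at chr4:136143572-136143821 on the plus strand and the *Id2* window at chr12:25096093-25096342 on the minus strand. Capitals mark the E-box CANNTG and the letters TATAA, searched on both strands.
Id3: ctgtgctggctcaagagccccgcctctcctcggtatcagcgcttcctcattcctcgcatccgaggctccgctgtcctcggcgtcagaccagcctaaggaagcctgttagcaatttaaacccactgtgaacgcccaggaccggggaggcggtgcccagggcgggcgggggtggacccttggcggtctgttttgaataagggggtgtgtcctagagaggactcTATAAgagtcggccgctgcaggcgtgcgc
Id2: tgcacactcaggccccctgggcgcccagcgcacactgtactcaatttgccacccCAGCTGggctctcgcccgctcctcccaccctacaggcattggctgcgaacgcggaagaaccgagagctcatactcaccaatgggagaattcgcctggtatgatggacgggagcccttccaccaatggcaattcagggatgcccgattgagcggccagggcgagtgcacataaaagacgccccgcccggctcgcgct
The *Id3* window held no E-box and a TATAA whose first base lies 29 bases before the start site. The *Id2* window held 1 E-box, CAGCTG, beginning 196 bases before the start site. Of 32851 windows of the same length over all genes, 66.2% held a CANNTG, 13% a CAGCTG and 22.8% a TATAA. Neither window held the Egr letters GCGTGGGCG or GCGGGGGCG on either strand, which 3.06% of all windows held. These are matches of letters and no measure of binding.

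Genes reported to act on Id transcription moved in both directions. Of 27 such genes, 7 were lower, beside 10.0% of all genes, 6 were higher, beside 13.1% of all genes, and 14 did not pass. Their median log2 fold change was 0.02 against 0.01 over all genes. The list joins Egr factors, which TCR signals induce, to the receptors and Smads of the BMP and TGF-β pathways and to repressors.

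*Bmpr1a*, which encodes a type I BMP receptor, had log2 values of 6.49, 6.39 and 6.64 in dKO cells, against 4.71, 4.58 and 4.47 in wild-type cells. Its wild-type values lay below the 95th percentile of the olfactory receptor genes, so background limits the measured difference of 1.92 on the log2 scale (95% interval 1.75 to 2.09, adjusted p = 2.2e-07 from limma). *Bmpr2*, encoding the type II partner, was 1.83-fold higher, at 8.72 ± 0.20 in dKO and 7.85 ± 0.07 in wild-type cells (SD, n = 3 each). *Smad1*, which encodes a transducer of BMP signals, rose by 0.47 on the log2 scale (adjusted p = 1.5e-04), while *Smad5*, encoding a closely related transducer, fell by 0.46 (adjusted p = 2.3e-04). *Smad7*, encoding an inhibitor of both pathways, fell by 1.05 (adjusted p = 1.6e-06). Of the TGF-β receptor genes, *Tgfbr2* fell by 0.27 (adjusted p = 0.0017) and *Tgfbr1* by 0.18 (adjusted p = 0.025, a call lost without dKO replicate 1 or 2 or wild-type replicate 1 or 3 at adjusted p of 0.0688 to 0.093). *Smad3*, encoding a transducer of TGF-β signals, rose by 0.24 (adjusted p = 0.0135, lost without dKO replicate 2 at 0.0575). *Acvr1*, encoding another type I receptor for BMPs, rose by 0.33 (adjusted p = 0.0015). The *Acvr1* values, 5.04 to 5.48 on the 6 arrays, all lay below the 95th percentile of the olfactory receptor genes, so background limits this difference too. *Id1*, whose values are given above, was not called and lay close above that percentile on all 6 arrays. Whether these changes bear on *Id1* was not tested.

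Among the Egr genes, *Egr2* fell by 0.37 (adjusted p = 7.4e-04). *Egr1*, *Egr3* and *Egr4* did not pass, with log2 fold changes of -0.07 (95% interval -0.22 to 0.08), -0.15 (95% interval -0.32 to 0.01) and 0.14 (95% interval 0.04 to 0.25, adjusted p = 0.054). For *Egr2* the log2 values were 9.50, 9.40 and 9.43 in dKO and 9.74, 9.84 and 9.86 in wild-type cells, with no overlap. Of the repressor genes, *Gfi1* fell by 0.36 (adjusted p = 0.0010) and *Bach2* by 0.34 (adjusted p = 0.0066), whereas *Prdm1*, which encodes Blimp-1, rose by 0.30 (adjusted p = 0.011).

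**Figure D3:**
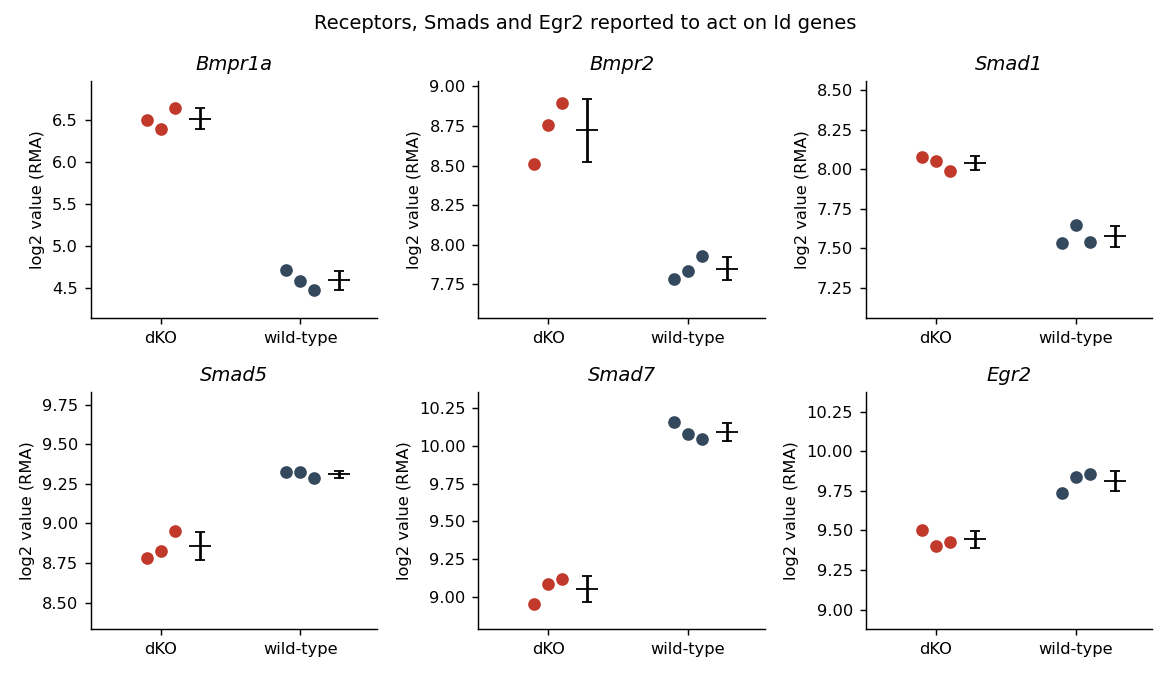
Log2 values (RMA, vertical axis) of 4 BMP and TGF-β pathway genes that changed most in the list, of *Smad5* and of *Egr2*, on the 3 dKO arrays (red) and the 3 wild-type arrays (dark blue). Points are arrays, black bars are mean ± SD, and each panel has its own range. The dKO points lie above the wild-type points for *Bmpr1a*, *Bmpr2* and *Smad1* and below them for *Smad5*, *Smad7* and *Egr2*.

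Genes that E2A or HEB are reported to bind or activate in thymocytes moved in both directions. Of 18 measured, 3 were higher, beside 13.1% of all genes, 6 were lower, beside 10.0% of all genes, and 9 did not pass, with a median log2 fold change of 0.01 that equals the one over all genes at this rounding. *Dntt*, which encodes the terminal transferase that adds bases at V(D)J joints, had log2 values of 9.43, 9.18 and 8.97 in dKO, against 7.84, 7.68 and 7.48 in wild-type cells. It was 2.88-fold higher in dKO cells (adjusted p = 1.4e-05 from limma), and *Cxcr4*, a chemokine receptor gene of DP thymocytes, was 1.91-fold higher (adjusted p = 1.5e-04). *Il7r* rose by 0.20, a call lost without wild-type replicate 2 (adjusted p = 0.064).

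Among those lower, *Socs1*, which encodes a brake on cytokine signalling, fell by 0.55 (adjusted p = 2.1e-05) and *Notch1* fell by 0.28 (adjusted p = 0.0076). *Gfi1*, *Gata3* and *Socs3* were lower too. *Rag1*, encoding a subunit of the V(D)J recombinase, had log2 values of 6.39, 5.97 and 5.87 in dKO and 7.03, 6.52 and 6.33 in wild-type cells, which overlap. Its log2 fold change of -0.55 (adjusted p = 0.044) was not called without dKO replicate 2 (adjusted p = 0.14), dKO replicate 3 (0.15), wild-type replicate 1 (0.11) or wild-type replicate 2 (0.070). *Rag2*, encoding the other subunit, and *Ptcra*, encoding the pre-TCR α chain, did not pass and had log2 fold changes of 0.13 (95% interval 0.004 to 0.25, adjusted p = 0.14) and 0.07 (95% interval -0.15 to 0.28). The *Rag2* values, 4.81 or less on every array, lay below the 95th percentile of the olfactory receptor genes.

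Of 9 genes that E2A activates in the B lineage, 3 were lower, beside 10.0% of all genes, and 6 did not pass. *Foxo1*, encoding a transcription factor that naive T-cells also use, was 1.91-fold lower in dKO cells (adjusted p = 1.8e-06). *Pou2af1*, encoding the coactivator OCA-B, fell by 0.76 (adjusted p = 7.7e-05), at 6.72 ± 0.10 in dKO and 7.48 ± 0.14 in wild-type cells (SD, n = 3 each). *Cd79b*, encoding a chain of the B-cell receptor, fell by 0.63 (adjusted p = 1.2e-05), while *Cd79a*, which encodes its partner, had values between 4.13 and 4.59 on the 6 arrays, below the 95th percentile of the olfactory receptor genes.

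The next list holds 14 measured genes that loss of Id3 or Id2 is reported to affect in T-cells, not all in the same direction. It was drawn up under the label of genes held down by Id proteins. Of the 14, 1 was higher and 4 were lower, beside 13.1% and 10.0% of all genes, and 9 did not pass. *Bcl6*, which encodes the transcription factor of follicular helper cells, was the gene that rose, with log2 values of 8.50, 8.46 and 8.56 in dKO, against 7.55, 7.78 and 7.90 in wild-type cells (log2 fold change 0.76, adjusted p = 9.8e-05 from limma). *Foxp3* and *Ikzf2*, both transcription factor genes of regulatory T-cells, fell by 0.89 and 0.94. *Icos* and *Cxcr3*, encoding a costimulatory and a chemokine receptor, fell by 0.41 and 0.23. *Zbtb16*, which encodes the innate-like T-cell factor PLZF, did not pass at -0.16 (95% interval -0.33 to 0.01), and *Cxcr5* and *Il4* had values of 5.22 or less on every array.

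Of 21 factors that pair with E proteins or bridge them to others, 3 were called higher and none lower, a share higher near the 13.1% of all genes, with a median log2 fold change of 0.04. *Lmo4*, which encodes a LIM-only adaptor, rose by 0.42 (adjusted p = 3.3e-04). *Hes6* and *Heyl*, encoding repressors of the same helix-loop-helix class, rose by 0.25 and 0.17, and both calls rested on single arrays. The *Hes6* call was lost without dKO replicate 1 or any 1 wild-type array (adjusted p 0.0525 to 0.101), and the *Heyl* call without dKO replicate 1 or 3 or wild-type replicate 1 or 2 (adjusted p 0.0752 to 0.121). *Tal1*, *Lyl1* and *Lmo2*, oncogenes of T-cell leukaemia when misexpressed, had log2 fold changes of 0.11, -0.06 and -0.04 and did not pass.

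Of 11 cofactors of E proteins and enzymes of their turnover, 2 were lower and 2 were higher, beside 10.0% and 13.1% of all genes. *Kat2b*, encoding the acetyltransferase PCAF, fell by 0.58, at 7.94 ± 0.03 in dKO and 8.52 ± 0.04 in wild-type cells (SD, n = 3 each, adjusted p = 1.9e-05). *Cbfa2t3*, encoding a corepressor of the ETO family, fell by 0.36 (adjusted p = 5.2e-04). *Usp1*, which encodes a deubiquitinase that can stabilize Id proteins, rose by 0.37 (adjusted p = 9.6e-04), and *Stub1*, encoding a ubiquitin ligase, rose by 0.23 (adjusted p = 0.016, lost without dKO replicate 1 at 0.057, dKO replicate 2 at 0.064 and wild-type replicate 1 at 0.0501). *Ep300* and *Crebbp*, encoding the main coactivators, did not pass at 0.03 (95% interval -0.09 to 0.16) and -0.11 (95% interval -0.23 to 0.02).

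**Figure D4:**
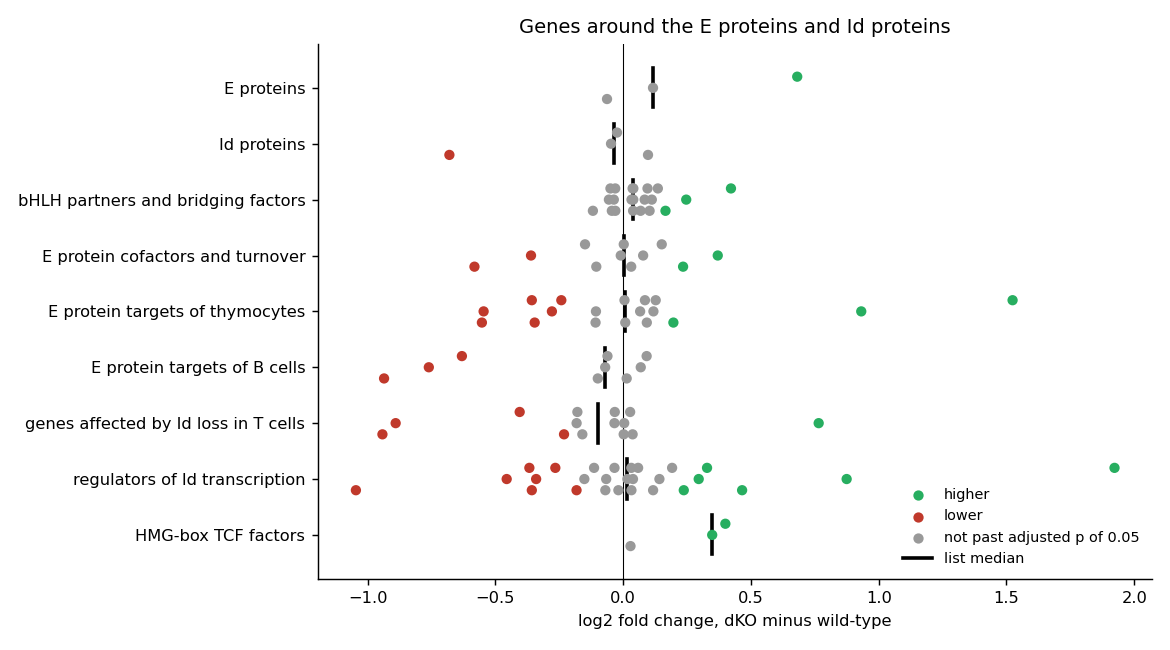
Log2 fold change (dKO minus wild-type, horizontal axis) of each measured gene in 9 lists (rows). Points are genes, green where called higher, red where called lower and grey where not called, spread vertically only for legibility, and black bars are list medians. *Tcf4* is the green point at 0.68 among E proteins and *Id3* the red point at -0.68 among Id proteins, and the medians of the 7 lists on partners, cofactors, targets, regulators and HMG-box factors run between -0.10 and 0.35.

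The HMG-box TCF factors, which carry similar names, were measured by rows of their own. *Tcf7l1* and *Tcf7l2* rose by 0.35 and 0.40 (adjusted p = 7.2e-04 and 8.5e-04 from limma), and *Lef1* did not pass at 0.03 (95% interval -0.08 to 0.13). The 2 calls stand beside 13.1% of all genes called higher. *Tcf7* was not analysed here.

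Over the 6 arrays, the genes with values most like those of *Tcf4* were *Crim1*, *Abcc1* and *Wls* (Pearson's r between 0.9977 and 0.9983), which were higher in dKO cells by 0.71, 0.50 and 0.39 on the log2 scale. Those most like *Id3* were *Gpr132*, *Wdr83os* and *Ttll12* (r between 0.9969 and 0.9983), with log2 fold changes of -0.09, -0.42 and -0.19. The arrays fall into the same 2 genotypes for every gene, and 554 genes had an r over 0.95 with *Tcf4* and 579 with *Id3*.

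Markers of cells that use E2-2, Id2 or Id3 were read on the same arrays. The marker counts stand beside 10.0% of all genes called lower and 13.1% called higher. Of 7 markers of plasmacytoid dendritic cells, none was higher and 2 were lower (*Pacsin1*, with a log2 fold change of -0.24, and *Irf8*, with -0.35, a call lost without dKO replicate 2 or 3 or wild-type replicate 1 or 2 at adjusted p of 0.135 to 0.157). *Siglech*, the most specific of them, had values of 5.69, 5.84 and 5.78 in dKO and 5.73, 5.85 and 5.74 in wild-type cells. The summed linear level of these markers was 3330 to 3922 in dKO and 3031 to 3545 in wild-type cells, most of it *Ccr9*, which thymocytes also express. Of 11 markers of conventional dendritic and myeloid cells, 1 was higher (*Lyz2*, a call lost without dKO replicate 1 at an adjusted p of 0.076 and without each other array except dKO replicate 3) and 1 was lower (*Itgam*). The wild-type values of *Lyz2* and the dKO values of *Itgam* lay below the 95th percentile of the olfactory receptor genes, so background limits both differences. The summed level of the 11 was 530.5 to 811 in dKO and 534.4 to 595.9 in wild-type cells. The highest sum was that of dKO replicate 1, where *Cd74* reached 7.73, *H2-Ab1* 7.27 and *Lyz2* 6.75. On dKO replicates 2 and 3, *Cd74* had values of 7.04 and 6.36, against 6.22 to 6.83 in wild-type cells. *H2-Ab1* had 6.69 and 6.21 there, against 6.03 to 6.36 in wild-type cells. Neither *Cd74* nor *H2-Ab1* passed (adjusted p = 0.27 and 0.135 from limma). Without dKO replicate 1 the log2 fold change of *Tcf4* was 0.73 (adjusted p = 2.9e-04 from limma). That fit kept dKO replicate 2, whose summed level of 649.9 also lay above all wild-type sums. The part of dendritic or myeloid cells in the *Tcf4* values was not tested.

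*Id3* is also expressed by endothelial cells. The summed level of 10 endothelial and stromal markers was 1348 to 1450 in dKO and 1727 to 1801 in wild-type cells. Most of that sum was *Pecam1* on every array. *Pecam1*, which T-cells also express, fell by 0.51 (adjusted p = 9.0e-05). The other 9 did not pass, and *Cdh5*, *Kdr* and *Tek* had values between 4.57 and 5.73 on the 6 arrays. The part of endothelial cells in the *Id3* values was not tested. Of 9 markers of DP thymocytes, 2 were higher (*Dntt* and *Cd8b1*) and 3 were lower (*Spo11*, *Rag1* and *Arpp21*, the last a call lost without dKO replicate 2 or 3 or wild-type replicate 1 or 2 at adjusted p of 0.0726 to 0.0836). The summed level of the 9 was 2316 to 2599 in dKO and 1666 to 1832 in wild-type cells. Most of that sum was *Cd8b1* and *Dntt*, the genes that rose. Of 7 B-cell markers 1 was lower (*Cd79b*), with a summed level of 291.5 to 300.2 in dKO and 341.7 to 352.3 in wild-type cells. *Cd79b* was the largest part of that sum. Of 8 NK and innate lymphoid markers 1 was lower (*Gata3*, which T-cells also express), with sums of 1646 to 1848 in dKO and 1978 to 2069 in wild-type cells. Most of these sums was *Gata3*. *Ncr1* and *Klrb1c*, which define NK cells, had values of 4.60 or less on every array. Whether the DP, B or NK marker differences bear on *Id3* or *Tcf4* was not tested.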

How the data were processed

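The authors hybridized RNA of 3 dKO and 3 wild-type samples to Affymetrix Mouse Gene 1.0 ST arrays, as their methods and the row annotation have it (the series text names an Exon array), and processed them in Partek. The deposited log2 values are RMA values per transcript row. RMA equalizes array distributions, so a shift of most genes would be hidden, and the number of arrays limits precision. Scale and direction are those of log2 expression, with no centring of genes. Of 25254 rows, 21496 had 1 symbol, and the brightest row per gene gave 19752 genes, updated by Entrez identifier with RefSeq GRCm38.p6.

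Genotype was tested with limma 3.58.1 in R 4.3.3, with Benjamini-Hochberg adjustment over all genes, no filter and a threshold of 0.05. Intervals are 95% and not adjusted. The tests were checked on simulated arrays. Summed levels add linear values. Members and lists were chosen with earlier results of these data known. Named genes were all members, up to 4 per list by smallest p, genes in counts of 5 or fewer, and the 3 genes most alike. Other genes that are given as not passing, *Kdm6a*, *Kdm6b*, *Smad5*, *Smad3*, *Acvr1*, *Tgfbr1*, *Tgfbr2*, *Egr2*, *Bach2*, *Prdm1* and the marker genes were named after their values were seen. Replicate numbers were not taken as pairs. Promoter windows are from RefSeq GRCm38.p6. Figures used matplotlib 3.10.9. The 15 alternatives were other normalizations, dim-gene filters, row rules, variance models, Student's t-test, a replicate block and single arrays left out.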

Additional observations from a re-analysis of the deposited data

How the results depend on the processing

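Under all 15 alternatives *Tcf4* was called higher (log2 fold change 0.61 to 0.73, highest adjusted p 0.023) and *Id3* lower (-0.74 to -0.58, highest adjusted p 0.039). Both of these highest values came from Student's t-test. *Tcf3*, *Tcf12* and *Id2* kept their direction and were called in none of 15, *Id1* in none of the 14 that tested it, and *Id4*, also tested in 14, ran between -0.054 and 0.012 when single arrays were left out and turned to 0.012 without dKO replicate 3 (adjusted p = 0.91). *Id1* and *Id4* were left out of the set of the 9876 brightest genes. With the replicate block, *Tcf4* and *Id3* had adjusted p of 5.0e-05 and 2.3e-04, and 1970 genes were called lower and 2574 higher, against 1976 and 2587 without it. Deviations of same-numbered arrays correlated at 0.0993, 0.0243 and 0.0697, and those of differently numbered arrays at -0.098 to 0.0395. These values do not settle whether same-numbered arrays are pairs. The numbers were not treated as pairs, since the records name no pairing. Student's t-test called 1173 genes lower and 1392 higher after Benjamini-Hochberg adjustment. Of 52 other list genes called, 34 were called under every alternative that tested them and 18 lost the call under some. Among those 18, *Notch1*, *Socs3*, *Gata3*, *Icos*, *Bach2*, *Prdm1*, *Cd5* and the thymic epithelial marker *Prss16* lost it only under Student's t-test (adjusted p 0.0651 to 0.111). Wild-type *Bmpr1a* lay below the 95th percentile of the olfactory receptor genes, so its fold change is limited by background. *Acvr1* lay below that percentile in both genotypes.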
